A study of Mus musculus with 12 samples.

Results

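The 35 genes described here code for the enzymes and transporters of glycolysis and for proteins that cells make more of when oxygen is short. They were taken by symbol from the 14648 genes of the deposited count table, all 35 were found, and all 35 passed the filter on low values. By role they fall into 5 genes of glucose uptake and capture, 8 of upper glycolysis, 5 of lower glycolysis, 3 of pyruvate fate, 4 of oxygen sensing, 3 of mitochondria and 7 other hypoxia response genes. The list and the roles follow textbook knowledge, and they were chosen with earlier results of these data known.

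RNA-Seq was done on macrophages sorted from the lungs of C57BL/6 mice of both sexes that had received B16 melanoma cells intravenously, so the controls carry tumors too. The 6 groups are CD11c+ interstitial macrophages (IMs), CD11c- IMs and alveolar macrophages (AMs), each from Il9r-/- mice, which lack the receptor of interleukin 9 in all cells, and from WT mice, with 2 libraries per group and 12 in all. The cells were live CD64+ MerTK+ macrophages told apart by Siglec-F and CD11c, and the age of the mice was 8 to 16 weeks. Counts per library came to 26988617 to 42020021, of which these 35 genes took 0.702% to 1.37%. The labels only number the 2 libraries of a group and do not say that they came from separate mice. Sex-linked genes, given below, show different mice for the 2 WT libraries of each group, and do not tell for Il9r-/-. The p-values rest on how far such libraries differ, for technical or other reasons.

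In glycolysis, hexokinases trap glucose in the cell, phosphofructokinase sets the pace, the lower steps yield ATP, and lactate dehydrogenase and a lactate exporter let the pathway run without oxygen. With oxygen at hand, the prolyl hydroxylases of the EGLN family mark HIF-1α and HIF-2α for destruction through VHL. When oxygen falls, the α subunits persist, pair with ARNT and bind short DNA motifs beside their target genes, which include most glycolytic enzymes, glucose transporters and EGLN3 itself. In macrophages, inflammatory signals and lactate are also known to raise HIF-1α, so a higher level of its targets is not by itself a measure of oxygen.

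The windows at the transcription start show the motif that these genes are known for. Each window of 300 bases spans 250 bases before the start and 50 from it, as given by RefSeq for GRCm38.p6, and 31 of the 35 genes had one (Slc2a3, Epas1, Bnip3l and Ndrg1 had none, and Ero1l is named Ero1a there). Searched on both strands, the HIF core motif ACGTG lay in 20 of 31 windows (64.5%), against 19.7% of all 27025 genes with a window, and GCGTG in 17 of 31 (54.8%), against 32.5%. The windows of these genes were also richer in G and C, with a median of 65.0% against 52.7% for all genes, and the part of base composition in these shares was not tested. The motif ACGTG is contained in the E-box CACGTG, which other factors bind and which is counted here on both strands. Windows of 5 genes with large differences between the populations are shown, with the 2 core motifs in either direction in capitals.

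P4ha2: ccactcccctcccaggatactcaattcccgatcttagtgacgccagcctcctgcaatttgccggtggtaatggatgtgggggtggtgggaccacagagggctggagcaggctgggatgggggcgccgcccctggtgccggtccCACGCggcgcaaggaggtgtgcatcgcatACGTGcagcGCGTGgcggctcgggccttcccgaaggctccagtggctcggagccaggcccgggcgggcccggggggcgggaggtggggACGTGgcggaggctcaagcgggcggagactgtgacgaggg
Adm: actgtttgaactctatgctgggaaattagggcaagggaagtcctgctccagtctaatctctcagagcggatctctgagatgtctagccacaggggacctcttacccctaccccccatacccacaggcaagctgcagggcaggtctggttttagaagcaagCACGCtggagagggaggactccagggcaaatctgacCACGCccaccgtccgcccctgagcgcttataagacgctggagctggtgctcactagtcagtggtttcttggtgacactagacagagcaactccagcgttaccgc
Egln3: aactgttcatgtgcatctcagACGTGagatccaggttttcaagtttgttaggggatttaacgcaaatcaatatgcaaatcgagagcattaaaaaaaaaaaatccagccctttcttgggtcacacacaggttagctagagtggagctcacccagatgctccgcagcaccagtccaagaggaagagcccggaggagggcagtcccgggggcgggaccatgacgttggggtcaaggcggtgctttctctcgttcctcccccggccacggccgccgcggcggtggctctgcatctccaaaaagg
Ankrd37: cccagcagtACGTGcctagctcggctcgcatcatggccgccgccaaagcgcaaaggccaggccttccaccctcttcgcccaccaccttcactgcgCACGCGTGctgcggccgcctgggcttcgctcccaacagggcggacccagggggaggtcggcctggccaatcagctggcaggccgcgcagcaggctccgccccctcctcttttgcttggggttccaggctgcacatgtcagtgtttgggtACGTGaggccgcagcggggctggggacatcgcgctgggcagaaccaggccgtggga
Aldoc: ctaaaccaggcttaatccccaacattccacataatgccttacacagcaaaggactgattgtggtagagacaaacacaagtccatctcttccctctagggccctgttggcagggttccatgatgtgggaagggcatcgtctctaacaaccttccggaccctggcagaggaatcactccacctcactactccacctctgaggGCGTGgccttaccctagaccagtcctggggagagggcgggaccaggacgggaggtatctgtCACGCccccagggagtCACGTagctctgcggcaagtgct

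P4ha2 is on chromosome 11 (GRCm38 position 54100674 to 54100973, plus strand), Adm on chromosome 7 (110627407 to 110627706, plus strand), Egln3 on chromosome 12 (54203825 to 54204124, minus strand), Ankrd37 on chromosome 8 (45999801 to 46000100, minus strand) and Aldoc on chromosome 11 (78322823 to 78323122, plus strand). P4ha2 and Ankrd37 hold 4 core motifs each, Aldoc 3, Adm 2 and Egln3 1. In the 2 windows with 4, ACGTG stands 78 bases before and 10 bases after the start in P4ha2, and 241 and 6 bases before it in Ankrd37. For Aldoc the first of 2 starts in the table is shown. Pfkm ranked above Aldoc, with a largest absolute log2 fold change of 2.64 against 2.46, and is not shown. The window at the first of its 4 starts held 3 matches of ACGTG, 2 of them in 1 E-box, and was 36.67% G and C. The gene with most matches in its window was Ldha, with 7, among them those of 2 E-boxes, each matched on both strands. Hk1, Gpi1, Aldoa, Tpi1 and Pkm had 0. Only the first start of a gene was searched, and RefSeq gave 2 for Ldha, Hk1 and Pkm and 3 for Aldoa. A match is a description of the letters in this window and says nothing of binding.

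Before the comparisons, the labels were checked against the genes they name. Il9r, the gene of the receptor, stood at 4.34 and 4.19 CPM (TMM-normalized counts scaled to library size) in CD11c+ IM libraries labelled Il9r-/- and at 0.158 and 0.495 CPM in WT ones, at 2.59 and 6.09 CPM in CD11c- IM libraries labelled Il9r-/- and at 0.75 and 6.47 CPM in WT ones, and at 6.6 and 6.82 CPM in AM libraries labelled Il9r-/- and at 0.627 and 0.326 CPM in WT ones. In CD11c+ IMs and AMs these counts go against the genotype labels, and in CD11c- IMs they overlap, but which part of the gene is deleted is not known from counts per gene. Arg1, an arginine-degrading enzyme of macrophages whose dependence on the receptor the study asks about, was the lower one on average in libraries labelled Il9r-/- in each population. It stood at 269 and 188 CPM in CD11c+ IM libraries labelled Il9r-/-, against 835 and 492 CPM in WT ones. In CD11c- IMs it stood at 188 and 89.3 CPM, against 503 and 143 CPM in WT ones, with overlap, and in AMs at 1.33 and 1.83 CPM, against 11.5 and 10.1 CPM. None of these differences passed the adjusted threshold used below. The libraries are called as labelled. Xist and the Y-linked genes set the 3 WT libraries numbered 1 apart from the other 9, so genotype and sex are partly mixed. In those 3, Xist stood at 12.5 to 27 CPM and the Y-linked Ddx3y at 0.105 to 0.257 CPM. WT libraries numbered 2 held 0 to 0.0478 and 70.9 to 88.9 CPM, so the 2 WT libraries of a group came from mice of different sex. Itgax, the gene of CD11c, separated the sorted populations, with a log2 fold change of 3.22 (SE 0.24) in CD11c+ IMs against CD11c- IMs. The 10 melanocyte marker genes summed to 71.1 to 855 CPM in CD11c+ IMs, 3552 to 9475 CPM in CD11c- IMs and 87.7 to 357 CPM in AMs, and the 8 neutrophil ones in the table to 326 to 2294, 417 to 6837 and 114 to 267 CPM. Markers of other cells differed too. The dendritic cell sum was 727 to 3275 CPM in CD11c+ IMs and 202 to 854 CPM in CD11c- IMs, against 35.3 to 70.4 CPM in AMs. The monocyte sum was 633 to 1519 and 2668 to 3470.0 CPM, against 37.9 to 83 CPM, and the B cell sum 100.3 to 484 and 182 to 1507 CPM, against 23.8 to 50.7 CPM. The epithelial sum was 122 to 323 and 892 to 7191 CPM, against 185 to 300.0 CPM. No gene of these lists was at 0 in all 4 libraries of a population, and their part in the results below was not tested.

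Most of these genes stood higher in both kinds of IM than in AMs. By role, the median log2 fold change over AMs was 2.81 in CD11c+ IMs and 3.03 in CD11c- IMs for the 7 other hypoxia response genes, 1.36 and 1.23 for glucose uptake and capture, 0.78 and 0.66 for lower glycolysis, and 0.20 and -0.05 for upper glycolysis. By edgeR's quasi-likelihood test, with Benjamini-Hochberg adjustment over all 14648 genes and an adjusted p under 0.05 as the threshold, CD11c+ IMs had 21 of 35 above AMs and 3 below, where 15.9% of all genes were higher, 10.7% lower and 26.6% passed in either direction. In CD11c- IMs against AMs, 21 were higher and 4 lower, where 27.9% of all genes were higher, 17.8% lower and 45.7% passed in either direction. The median log2 fold change of the 35 was 0.81 in CD11c+ IMs against AMs, beside 0.027 for all genes, and 0.88 in CD11c- IMs against AMs, beside 0.12 for all genes. Both comparisons use the same 4 AM libraries and average the 2 genotypes, 4 libraries against 4. The 4 libraries of CD11c+ IMs and those of AMs did not overlap at 23 genes that were higher and 5 that were lower, beside 17.7% and 16.8% of all genes. For CD11c- IMs these counts were 19 and 5, beside 27.4% and 20% of all genes. Among libraries labelled Il9r-/- alone, 12 of 35 passed in CD11c+ IMs and 21 in CD11c- IMs, beside 12.5% and 29% of all genes. Among WT libraries alone, 14 and 21 passed, beside 11.6% and 25.7%. Without the 3 WT libraries numbered 1, 13 passed in CD11c+ IMs and 22 in CD11c- IMs, beside 12.9% and 30.5% of all genes. Without the 2 CD11c- IM libraries numbered 1, which hold the most melanocyte marker RNA, 24 passed in CD11c- IMs, beside 45% of all genes. In sorted bulk RNA, more of a transcript per cell and more cells that carry it cannot be told apart.

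**Figure D1:**
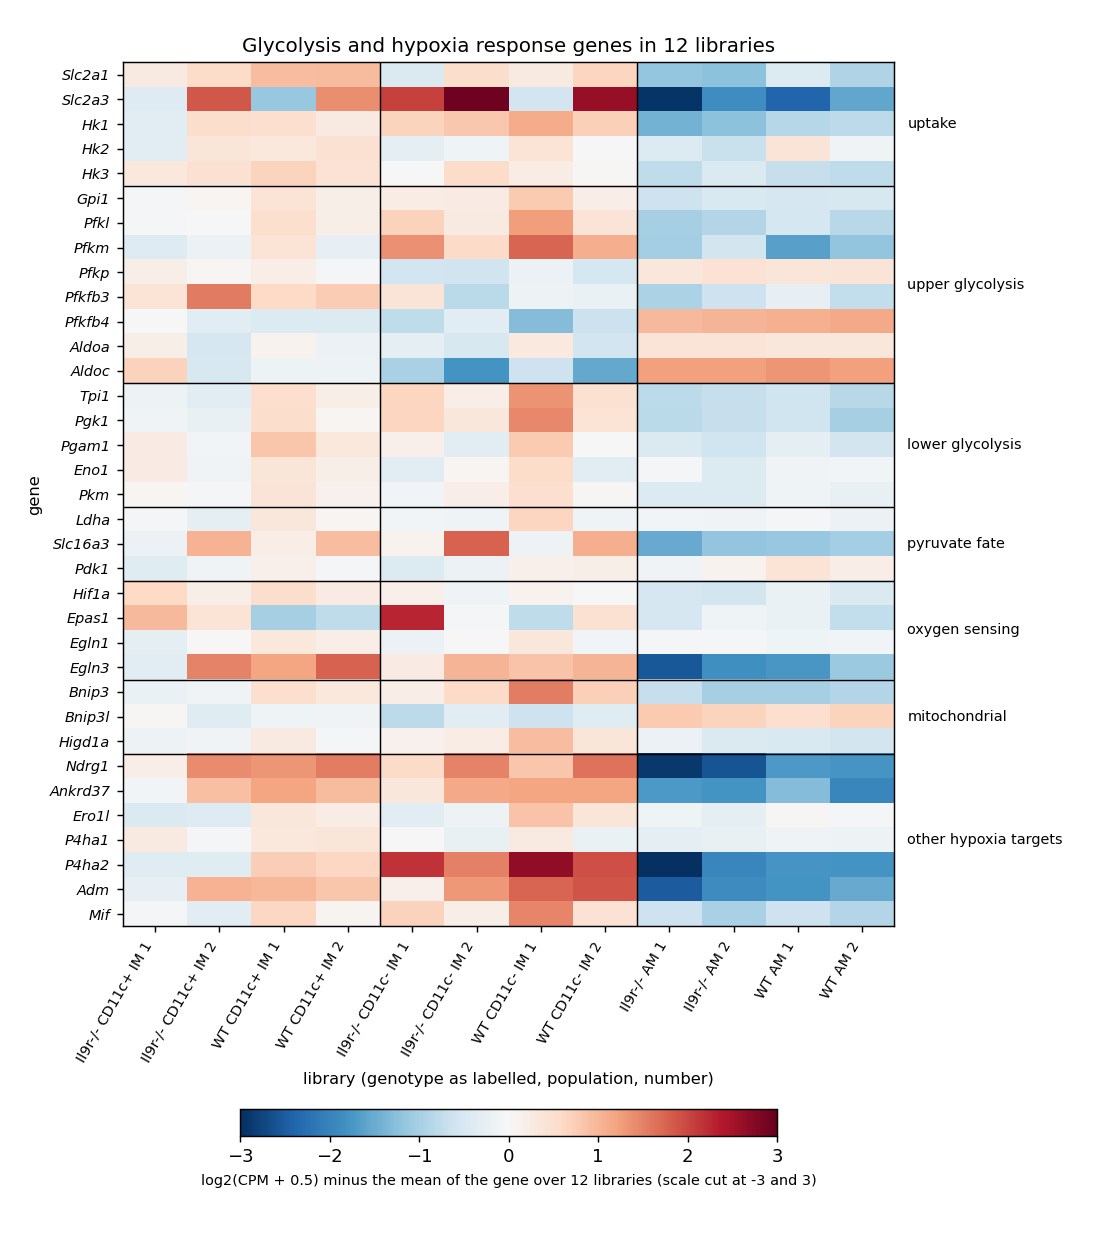
Level of each of the 35 genes in each library, as log2(CPM + 0.5) minus the mean of the gene over the 12 libraries, with colours cut at -3 and 3. Rows run by role and columns by population, with libraries labelled Il9r-/- before WT; Egln3, Ndrg1, Ankrd37, P4ha2 and Adm are at their lowest in the 4 AM libraries, while Pfkfb4, Aldoc and Bnip3l are at their highest there.

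**Figure D2:**
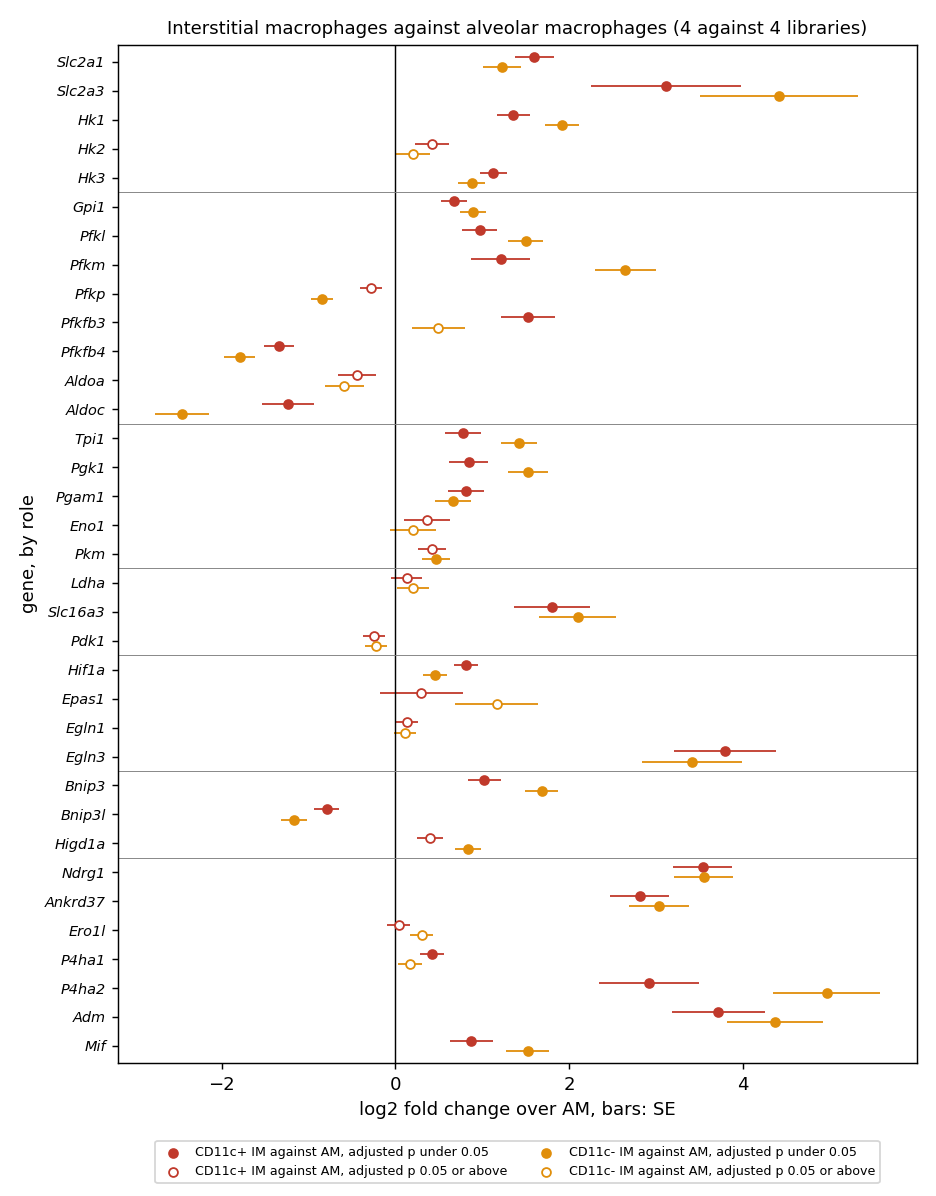
Log2 fold change of each gene over AMs in CD11c+ IMs (red) and CD11c- IMs (orange), with SE as bars and filled points where the adjusted p is under 0.05. The largest values are those of P4ha2 (4.96 in CD11c- IMs), Slc2a3, Adm, Egln3 and Ndrg1, and the lowest is that of Aldoc (-2.46 in CD11c- IMs).

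In each of the sentences on single genes, the 4 CPM values of a population are those of Il9r-/- library 1, Il9r-/- library 2, WT library 1 and WT library 2, with genotypes as labelled. Counts by role against AMs stand beside the shares of all genes given above. These were 15.9% higher and 10.7% lower in CD11c+ IMs, and 27.9% higher and 17.8% lower in CD11c- IMs.

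Glucose uptake and capture was higher in IMs at 4 of its 5 genes, in both IM populations. Slc2a1, the glucose transporter GLUT1, stood at 109, 133, 173 and 174 CPM in CD11c+ IMs and 66.6, 132, 109.8 and 143 CPM in CD11c- IMs. AMs held 40.2, 38.4, 67.9 and 48.6 CPM. All CD11c+ IM libraries were above all AM libraries, and 1 CD11c- IM library was just below the highest AM library. Its log2 fold changes over AMs were 1.60 in CD11c+ IMs (SE 0.22, adjusted p = 0.000951) and 1.23 in CD11c- IMs (SE 0.22, adjusted p = 0.00189). Slc2a3, the high-affinity transporter GLUT3, stood at 16.2, 79, 9.45 and 56.9 CPM in CD11c+ IMs and 89.9, 165, 14.3 and 134 CPM in CD11c- IMs. AMs held 2.37, 5.57, 3.71 and 6.91 CPM. Every IM library was above every AM library, but the IM libraries spread widely, and the one numbered 2 was the higher of each pair. For GLUT3 the log2 fold changes over AMs were 3.12 in CD11c+ IMs (SE 0.86, adjusted p = 0.0262) and 4.41 in CD11c- IMs (SE 0.91, adjusted p = 0.00399). Slc2a3 lost its call in CD11c+ IMs without WT AM library 1, Il9r-/- AM library 1, WT AM library 2, WT CD11c+ IM library 2, Il9r-/- AM library 2 or Il9r-/- CD11c+ IM library 2 (edgeR, adjusted p = 0.0645 to 0.103). Within each IM population the neutrophil marker sum put the libraries in the same order as Slc2a3. This sum was 569, 2294, 326 and 1368 CPM in CD11c+ IMs and 3116, 6837, 417 and 3351 CPM in CD11c- IMs. In AMs, at 180.5, 267, 114 and 170.3 CPM, the order differed. The part of neutrophil RNA was not tested.

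Of the hexokinases, Hk1 and Hk3 were higher in IMs and Hk2 did not pass. Hk1, the housekeeping enzyme bound to mitochondria, stood at 60.4, 108, 106 and 89.7 CPM in CD11c+ IMs and 119.7, 130.3, 163 and 122 CPM in CD11c- IMs. AMs held 27.8, 31.7, 41.3 and 43 CPM. The groups did not overlap, and its log2 fold changes were 1.36 in CD11c+ IMs (SE 0.19, adjusted p = 0.000975) and 1.92 in CD11c- IMs (SE 0.19, adjusted p = 8.68e-05). Hk3, an enzyme known from myeloid cells, stood at 146, 162, 187 and 159 CPM in CD11c+ IMs and 117, 174, 138 and 121 CPM in CD11c- IMs. AMs held 69.5, 87.7, 73.1 and 69.2 CPM. Again no AM library reached any IM library, with log2 fold changes of 1.13 in CD11c+ IMs (SE 0.15, adjusted p = 0.000871) and 0.88 in CD11c- IMs (SE 0.15, adjusted p = 0.00164). Hk2, the inducible enzyme and a known HIF-1 target, stood at 22, 35.4, 34.2 and 37.7 CPM in CD11c+ IMs and 22.4, 25.2, 36.9 and 27.1 CPM in CD11c- IMs. AMs held 20.7, 17, 35.9 and 25.6 CPM. Its values overlapped between all 3 populations, with log2 fold changes of 0.42 in CD11c+ IMs (SE 0.20, adjusted p = 0.155) and 0.20 in CD11c- IMs (SE 0.20, adjusted p = 0.441).

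Upper glycolysis was mixed: against AMs, 4 of 8 genes were higher and 2 lower in CD11c+ IMs, and in CD11c- IMs 3 were higher and 3 lower. With 27.9% of all genes higher and 17.8% lower in CD11c- IMs, nothing is read from the counts there for this part of the pathway. Gpi1, which turns glucose 6-phosphate into fructose 6-phosphate, stood at 408, 432, 551 and 465 CPM in CD11c+ IMs and 487, 489, 711 and 479 CPM in CD11c- IMs. AMs held 269.5, 300.4, 292 and 299 CPM. Every IM library was above every AM library, with log2 fold changes of 0.67 in CD11c+ IMs (SE 0.15, adjusted p = 0.00982) and 0.89 in CD11c- IMs (SE 0.15, adjusted p = 0.00132). Pfkl, the liver-type phosphofructokinase, stood at 169, 170.3, 244 and 193 CPM in CD11c+ IMs and 278, 207, 408 and 227 CPM in CD11c- IMs. AMs held 86, 93.6, 119 and 96.6 CPM. All IM libraries were again higher, with log2 fold changes of 0.97 in CD11c+ IMs (SE 0.20, adjusted p = 0.00677) and 1.5 in CD11c- IMs (SE 0.20, adjusted p = 0.000418). Pfkm, the muscle-type enzyme, was low everywhere, at 2.99, 3.59, 5.61 and 3.35 CPM in CD11c+ IMs and 11.4, 6.35, 14.8 and 9.32 CPM in CD11c- IMs. AMs held 1.77, 2.63, 0.982 and 1.52 CPM. It was highest in CD11c- IMs, with log2 fold changes over AMs of 1.21 in CD11c+ IMs (SE 0.34, adjusted p = 0.0268) and 2.64 in CD11c- IMs (SE 0.35, adjusted p = 0.000388). Pfkm lost its call in CD11c+ IMs without WT AM library 1, WT CD11c+ IM library 1, Il9r-/- AM library 1 or Il9r-/- CD11c+ IM library 2 (edgeR, adjusted p = 0.0727 to 0.099).

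Pfkp, the platelet-type enzyme, ran the other way, at 419, 379, 429 and 363 CPM in CD11c+ IMs and 249.6, 245, 329 and 257 CPM in CD11c- IMs. AMs held 467, 502, 475 and 486 CPM. All CD11c- IM libraries were below all AM libraries, and its log2 fold changes were -0.28 in CD11c+ IMs (SE 0.13, adjusted p = 0.143) and -0.84 in CD11c- IMs (SE 0.13, adjusted p = 0.000803), of which that in CD11c+ IMs did not pass. The bifunctional enzymes that make or remove fructose 2,6-bisphosphate, the activator of phosphofructokinase, also went opposite ways. Pfkfb3, whose kinase activity prevails, stood at 48.6, 107, 54.9 and 61.8 CPM in CD11c+ IMs and 47.1, 20.5, 32.5 and 31.3 CPM in CD11c- IMs. AMs held 18.4, 23.4, 30.5 and 21.6 CPM. It was higher in CD11c+ IMs, and the change in CD11c- IMs did not pass, with log2 fold changes of 1.53 in CD11c+ IMs (SE 0.31, adjusted p = 0.0067) and 0.49 in CD11c- IMs (SE 0.31, adjusted p = 0.216). Pfkfb4 stood at 177, 140.3, 134 and 132 CPM in CD11c+ IMs and 104, 139, 71.3 and 113 CPM in CD11c- IMs. AMs held 350.3, 357, 373 and 390.2 CPM. No IM library reached the lowest AM library, and the log2 fold changes were -1.34 in CD11c+ IMs (SE 0.17, adjusted p = 0.000642) and -1.79 in CD11c- IMs (SE 0.17, adjusted p = 7.38e-05).

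Aldoc, the brain-type aldolase, stood at 86.8, 38, 48.2 and 47.7 CPM in CD11c+ IMs and 26.7, 15.1, 34.4 and 18 CPM in CD11c- IMs. AMs held 127, 126, 135 and 127 CPM. It was lowest in CD11c- IMs and nearly even among AMs, with log2 fold changes over AMs of -1.23 in CD11c+ IMs (SE 0.30, adjusted p = 0.015) and -2.46 in CD11c- IMs (SE 0.31, adjusted p = 0.000314). Aldoc lost its call in CD11c+ IMs without WT CD11c+ IM library 2 (edgeR, adjusted p = 0.0553). Aldoa, the main aldolase and the most abundant of these genes in AMs per length, did not pass. Its 4 values were 1813, 1148, 1728 and 1437 CPM in CD11c+ IMs, 1344, 1156, 1964 and 1088 CPM in CD11c- IMs and 2118, 2112, 2038 and 2033 CPM in AMs. The near-identical Aldoart1 can take or lose reads of this gene, and Gapdh, Pgam1 and Mif have copies in the genome too.

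In lower glycolysis, 3 of 5 genes were higher in CD11c+ IMs and 4 in CD11c- IMs. Tpi1, triosephosphate isomerase, stood at 455, 406, 707 and 567 CPM in CD11c+ IMs and 779.8, 581, 1284 and 689 CPM in CD11c- IMs. AMs held 293, 313, 334 and 283 CPM. Every IM library was above every AM library, and WT CD11c- IM library 1 stood apart at the top. On the log2 scale Tpi1 differed by 0.78 in CD11c+ IMs (SE 0.21, adjusted p = 0.023) and 1.42 in CD11c- IMs (SE 0.21, adjusted p = 0.000716). Tpi1 lost its call in CD11c+ IMs without WT AM library 1, WT CD11c+ IM library 1, Il9r-/- AM library 1, WT AM library 2 or Il9r-/- AM library 2 (edgeR, adjusted p = 0.0561 to 0.0916). Pgk1, phosphoglycerate kinase, stood at 130.5, 120.0, 203 and 148 CPM in CD11c+ IMs and 221, 179, 382 and 186 CPM in CD11c- IMs. AMs held 80, 87.2, 92.6 and 70.7 CPM. The order of the libraries was much the same, with log2 fold changes of 0.84 in CD11c+ IMs (SE 0.23, adjusted p = 0.0226) and 1.53 in CD11c- IMs (SE 0.23, adjusted p = 0.000747). Pgk1 lost its call in CD11c+ IMs without WT CD11c+ IM library 1, Il9r-/- AM library 1, WT AM library 2 or Il9r-/- AM library 2 (edgeR, adjusted p = 0.0613 to 0.0914).

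Pgam1, phosphoglycerate mutase, stood at 138, 109.6, 206 and 145 CPM in CD11c+ IMs and 128, 93.5, 200.2 and 116 CPM in CD11c- IMs. AMs held 85.5, 76.3, 94.3 and 79.2 CPM. The CD11c- IM values reached down to those of AMs, and the log2 fold changes were 0.81 in CD11c+ IMs (SE 0.21, adjusted p = 0.0188) and 0.66 in CD11c- IMs (SE 0.21, adjusted p = 0.0278). Pgam1 lost its call in CD11c+ IMs without WT CD11c+ IM library 1, Il9r-/- AM library 1, WT AM library 2 or Il9r-/- AM library 2 (edgeR, adjusted p = 0.0518 to 0.0765). Pgam1 lost its call in CD11c- IMs without WT AM library 1, WT CD11c- IM library 1, Il9r-/- AM library 1, Il9r-/- CD11c- IM library 1, WT AM library 2 or Il9r-/- AM library 2 (edgeR, adjusted p = 0.0536 to 0.0959). Pkm, pyruvate kinase, stood at 1935, 1781, 2434 and 2028 CPM in CD11c+ IMs and 1767, 2129, 2646 and 1903 CPM in CD11c- IMs. AMs held 1411, 1391, 1708 and 1603 CPM. IM libraries were higher than AM libraries throughout, by log2 fold changes of 0.42 in CD11c+ IMs (SE 0.16, adjusted p = 0.0821) and 0.47 in CD11c- IMs (SE 0.16, adjusted p = 0.0373), of which only that in CD11c- IMs passed. Pkm lost its call in CD11c- IMs without WT AM library 1, WT CD11c- IM library 1, Il9r-/- AM library 1, WT AM library 2, Il9r-/- AM library 2 or Il9r-/- CD11c- IM library 2 (edgeR, adjusted p = 0.0896 to 0.119). Eno1, enolase, was counted at 5.12 to 10.5 CPM, low for this enzyme: the copy Eno1b held 103 to 434 counts beside 160 to 489 counts of Eno1, and reads that match both are dropped when only uniquely mapped ones are counted. Its level is therefore uncertain, and neither IM population passed against AMs. Gapdh, the enzyme between Tpi1 and Pgk1 and no member of the list, had log2 fold changes of -0.17 in CD11c+ IMs (SE 0.18, adjusted p = 0.539) and -0.06 in CD11c- IMs (SE 0.18, adjusted p = 0.819). The libraries highest in Tpi1 and Pgk1, WT CD11c- IM library 1 and Il9r-/- CD11c- IM library 1, were also those with the highest melanocyte marker sums, 9475 and 7905 CPM, beside 3661 and 3552 CPM in the other CD11c- IM libraries. Without those 2 libraries the log2 fold changes in CD11c- IMs were 1.05 for Tpi1 and 1.15 for Pgk1 (edgeR, adjusted p = 0.00132 and adjusted p = 0.00183). The melanocyte sums of the 2 libraries then left still stood above the 87.7 to 357 CPM of AMs, and the part of tumor RNA was not tested.

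Of the genes of pyruvate fate, the exporter of lactate changed and the enzymes did not pass. Slc16a3, the lactate exporter MCT4, stood at 158, 368, 206 and 341 CPM in CD11c+ IMs and 192, 612, 161 and 379 CPM in CD11c- IMs. AMs held 62.2, 78.6, 81.2 and 87.5 CPM. Every IM library was above every AM library, and the libraries numbered 2 were the higher ones, as for Slc2a3. The log2 fold changes of MCT4 were 1.80 in CD11c+ IMs (SE 0.44, adjusted p = 0.0148) and 2.10 in CD11c- IMs (SE 0.44, adjusted p = 0.00433). Slc16a3 lost its call in CD11c+ IMs without WT AM library 1, Il9r-/- AM library 1, WT AM library 2 or Il9r-/- CD11c+ IM library 2 (edgeR, adjusted p = 0.0524 to 0.062). Ldha, the lactate dehydrogenase subunit that favours lactate, stood at 1300.2, 1108, 1687 and 1399 CPM in CD11c+ IMs and 1252, 1219, 2088 and 1228 CPM in CD11c- IMs. AMs held 1269, 1248, 1279.5 and 1188 CPM. The 3 populations overlapped, with the highest value in WT CD11c- IM library 1, and its log2 fold changes were 0.13 in CD11c+ IMs (SE 0.18, adjusted p = 0.655) and 0.20 in CD11c- IMs (SE 0.18, adjusted p = 0.395). A p above the threshold does not show that its levels were the same. Pdk1, the kinase that closes the entry of pyruvate into the citrate cycle and a known HIF-1 target, was at 34.3 to 61.1 CPM over the 12 libraries and had log2 fold changes of -0.25 in CD11c+ IMs (SE 0.13, adjusted p = 0.189) and -0.22 in CD11c- IMs (SE 0.13, adjusted p = 0.175).

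**Figure D3:**
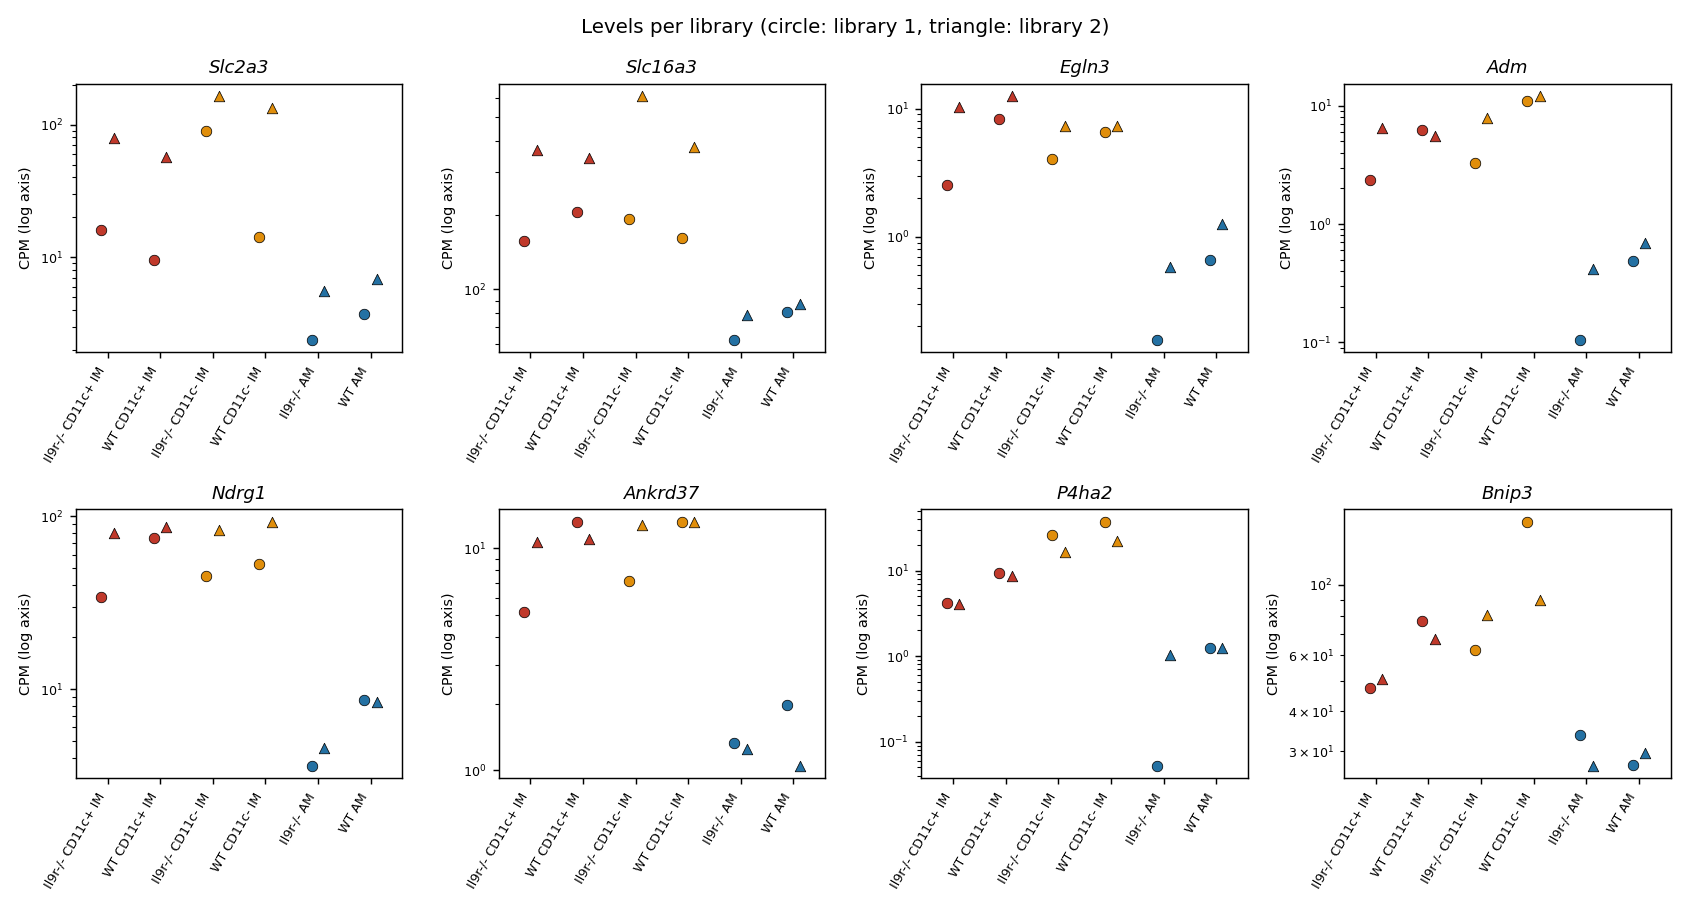
CPM of 8 genes in each library on a log axis, with circles for library 1 and triangles for library 2 of each group. For Slc2a3, Slc16a3, Egln3, Adm, Ndrg1, Ankrd37, P4ha2 and Bnip3, all 8 IM libraries sit above all 4 AM libraries, and for Slc2a3 and Slc16a3 the triangle is the higher point in every group.

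Among the oxygen sensors, the α subunit of HIF-1 and one hydroxylase were higher in IMs. Hif1a stood at 246, 184, 234 and 194 CPM in CD11c+ IMs and 180.0, 149.8, 175 and 165 CPM in CD11c- IMs. AMs held 115, 110.4, 142 and 121 CPM. All IM libraries were above all AM libraries, with log2 fold changes of 0.82 in CD11c+ IMs (SE 0.14, adjusted p = 0.00265) and 0.46 in CD11c- IMs (SE 0.14, adjusted p = 0.0227). Hif1a lost its call in CD11c- IMs without Il9r-/- AM library 1, Il9r-/- CD11c- IM library 1, WT AM library 2 or Il9r-/- AM library 2 (edgeR, adjusted p = 0.0635 to 0.0938). The activity of HIF-1α is set mainly by protein stability, which was not measured. Epas1, the gene of HIF-2α, stood at 24.8, 16.8, 6.00 and 7.08 CPM in CD11c+ IMs and 62.2, 11.9, 7.14 and 17.3 CPM in CD11c- IMs. AMs held 8.61, 11.3, 10.8 and 7.24 CPM. The highest value, in Il9r-/- CD11c- IM library 1, fell in the library with the highest endothelial marker sum, 412 CPM, against 48.3 to 201 CPM in the other 11. Epas1 is also high in endothelium, and the part of such cells was not tested. Its log2 fold changes over AMs were 0.30 in CD11c+ IMs (SE 0.48, adjusted p = 0.706) and 1.17 in CD11c- IMs (SE 0.48, adjusted p = 0.074), and neither passed.

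Egln3, the hydroxylase that is itself a HIF target, stood at 2.55, 10.2, 8.24 and 12.6 CPM in CD11c+ IMs and 4.04, 7.33, 6.51 and 7.33 CPM in CD11c- IMs. AMs held 0.156, 0.576, 0.655 and 1.27 CPM. The libraries held 87 to 376 counts of it in CD11c+ IMs and 175 to 307 in CD11c- IMs, against 6 to 35 in AMs, and IM and AM values did not overlap. Egln3 had log2 fold changes of 3.79 in CD11c+ IMs (SE 0.58, adjusted p = 0.0017) and 3.41 in CD11c- IMs (SE 0.58, adjusted p = 0.00144). Egln1, the main hydroxylase under normal oxygen, was at 52.8 to 81.9 CPM over all libraries, with log2 fold changes of 0.13 in CD11c+ IMs (SE 0.13, adjusted p = 0.499) and 0.11 in CD11c- IMs (SE 0.13, adjusted p = 0.516), and neither passed. Of the partners outside the list, Arnt had log2 fold changes of -0.17 in CD11c+ IMs (SE 0.14, adjusted p = 0.402) and -0.16 in CD11c- IMs (SE 0.14, adjusted p = 0.369), and Vhl, which was higher in both IM populations, 0.84 in CD11c+ IMs (SE 0.15, adjusted p = 0.0031) and 0.41 in CD11c- IMs (SE 0.15, adjusted p = 0.0459).

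The mitochondrial genes split. Bnip3, a receptor for the removal of mitochondria and a classical HIF target, stood at 47.5, 50.7, 76.9 and 67.8 CPM in CD11c+ IMs and 62.5, 80.6, 158 and 89.5 CPM in CD11c- IMs. AMs held 33.6, 27, 27.2 and 29.5 CPM. Every IM library was above every AM library, with log2 fold changes of 1.02 in CD11c+ IMs (SE 0.19, adjusted p = 0.00398) and 1.68 in CD11c- IMs (SE 0.19, adjusted p = 0.000171). Its relative Bnip3l stood at 193, 147, 174 and 177 CPM in CD11c+ IMs and 110.2, 151, 123 and 147 CPM in CD11c- IMs. AMs held 326, 300.2, 268 and 302 CPM. Here every AM library was above every IM library, with log2 fold changes of -0.79 in CD11c+ IMs (SE 0.15, adjusted p = 0.00425) and -1.17 in CD11c- IMs (SE 0.15, adjusted p = 0.000307). Higd1a, which acts on the respiratory chain, stood at 43.6, 44.9, 59.2 and 47.5 CPM in CD11c+ IMs and 53.3, 57.4, 92.5 and 63.3 CPM in CD11c- IMs. AMs held 43, 36.3, 35.3 and 33.2 CPM. Higd1a had log2 fold changes of 0.40 in CD11c+ IMs (SE 0.15, adjusted p = 0.077) and 0.83 in CD11c- IMs (SE 0.15, adjusted p = 0.00186), and only that in CD11c- IMs passed.

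The other hypoxia response genes had the largest median difference of the 7 roles, with 6 of 7 higher in CD11c+ IMs and 5 of 7 in CD11c- IMs than in AMs. Ndrg1, a stress response gene used as a marker of hypoxia, stood at 34.2, 80.4, 74.9 and 87 CPM in CD11c+ IMs and 45, 83.9, 53.3 and 93.3 CPM in CD11c- IMs. AMs held 3.6, 4.55, 8.62 and 8.39 CPM. The lowest IM library was far above the highest AM library, and the log2 fold changes were 3.53 in CD11c+ IMs (SE 0.34, adjusted p = 0.000153) and 3.55 in CD11c- IMs (SE 0.34, adjusted p = 7e-05). Adm, the vasodilator peptide adrenomedullin, stood at 2.37, 6.5, 6.27 and 5.56 CPM in CD11c+ IMs and 3.3, 7.92, 10.9 and 12.1 CPM in CD11c- IMs. AMs held 0.104, 0.416, 0.491 and 0.687 CPM. AM libraries held 4 to 19 counts of it, and its log2 fold changes were 3.72 in CD11c+ IMs (SE 0.54, adjusted p = 0.00119) and 4.37 in CD11c- IMs (SE 0.55, adjusted p = 0.000297). Ankrd37, a small ankyrin repeat protein whose gene is a known HIF-1 target, stood at 5.19, 10.7, 13.2 and 11.1 CPM in CD11c+ IMs and 7.16, 12.7, 13.2 and 13.2 CPM in CD11c- IMs. AMs held 1.33, 1.25, 1.96 and 1.05 CPM. Its groups did not overlap, with log2 fold changes of 2.81 in CD11c+ IMs (SE 0.34, adjusted p = 0.000471) and 3.03 in CD11c- IMs (SE 0.34, adjusted p = 0.000171).

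P4ha2, a subunit of the collagen prolyl hydroxylase, stood at 4.16, 4.11, 9.43 and 8.72 CPM in CD11c+ IMs and 26.3, 16.5, 37.3 and 22.2 CPM in CD11c- IMs. AMs held 0.0522, 1.02, 1.25 and 1.23 CPM. It was graded, lowest in AMs and highest in CD11c- IMs with no overlap at either step, and the log2 fold changes over AMs were 2.92 in CD11c+ IMs (SE 0.57, adjusted p = 0.00554) and 4.96 in CD11c- IMs (SE 0.61, adjusted p = 0.000277). In CD11c- IMs the fibroblast marker sum was higher too, at 647, 921, 587 and 700.0 CPM, against 15.5, 14.9, 18.3 and 14.4 CPM in AMs. The melanocyte marker sum was 7905, 3552, 9475 and 3661 CPM in CD11c- IMs, against 109, 87.7, 357 and 155 CPM in AMs. Over the 4 CD11c- IM libraries P4ha2 had the same order as the melanocyte sum and not that of the fibroblast sum, and the part of either was not tested. P4ha1, the other subunit form, stood at 116, 91.8, 119 and 123 CPM in CD11c+ IMs and 96.7, 81.3, 115 and 83.8 CPM in CD11c- IMs. AMs held 79.7, 82.4, 86.9 and 85.5 CPM. Only CD11c+ IMs passed, with log2 fold changes of 0.42 in CD11c+ IMs (SE 0.14, adjusted p = 0.046) and 0.17 in CD11c- IMs (SE 0.14, adjusted p = 0.332). P4ha1 lost its call in CD11c+ IMs without WT AM library 1, WT CD11c+ IM library 1, Il9r-/- AM library 1, Il9r-/- CD11c+ IM library 1, WT AM library 2, WT CD11c+ IM library 2 or Il9r-/- AM library 2 (edgeR, adjusted p = 0.0954 to 0.132). Mif, a cytokine that is also a HIF target, stood at 112, 89.3, 176 and 122 CPM in CD11c+ IMs and 185, 129, 315 and 153 CPM in CD11c- IMs. AMs held 74.1, 57.7, 74 and 61.3 CPM. For Mif the log2 fold changes were 0.87 in CD11c+ IMs (SE 0.25, adjusted p = 0.0288) and 1.52 in CD11c- IMs (SE 0.25, adjusted p = 0.00125). Mif lost its call in CD11c+ IMs without WT AM library 1, WT CD11c+ IM library 1, Il9r-/- AM library 1, Il9r-/- CD11c+ IM library 1, WT AM library 2 or Il9r-/- AM library 2 (edgeR, adjusted p = 0.0559 to 0.103). Ero1l, the endoplasmic reticulum oxidase, stood at 73.8, 76.5, 127 and 116 CPM in CD11c+ IMs and 80.5, 89.8, 182 and 128 CPM in CD11c- IMs. AMs held 92.4, 82.3, 102 and 97 CPM, and its log2 fold changes were 0.04 in CD11c+ IMs (SE 0.13, adjusted p = 0.888) and 0.30 in CD11c- IMs (SE 0.13, adjusted p = 0.0839), neither of which passed.

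Between the IM populations, the number of genes that passed depended on the fit. In CD11c+ IMs against CD11c- IMs, 2 of 35 were higher and 3 lower, where 4.98% of all genes were higher, 7.71% lower and 12.7% passed in either direction, so the count among these genes was close to what all genes gave. Higher on the log2 scale were Pfkp, by 0.56 (SE 0.13, adjusted p = 0.0236), and Aldoc, by 1.22 (SE 0.30, adjusted p = 0.0307). Lower were Pfkm, with a value of -1.43 (SE 0.33, adjusted p = 0.0258), P4ha2, with -2.04 (SE 0.53, adjusted p = 0.0364), and Bnip3, with -0.66 (SE 0.19, adjusted p = 0.0487). CD11c+ IMs lay between CD11c- IMs and AMs in the mean of all 5. The alveolar macrophage marker sum was graded too. It was 4941 to 18710 CPM in CD11c+ IMs, 1604 to 3246 CPM in CD11c- IMs and 38680 to 50270 CPM in AMs. The part of alveolar transcripts in these differences was not tested. A block by library number gave 11 of 35, beside 17.6% of all genes, one by genotype and number 10, beside 14.3%, and DESeq2 10, beside 20.7%. The same-numbered libraries of the 4 IM groups deviated together, with correlations of 0.174 to 0.41 between groups over all genes. With the library totals alone as the scale, which moves the median of all genes to -0.26 in place of -0.046, 0 were higher and 10 were lower, beside 14.6% of all genes in either direction, and Pfkp and Aldoc no longer passed (edgeR, adjusted p = 0.0761 and adjusted p = 0.0511). Within libraries labelled Il9r-/- and within WT libraries, edgeR called 0 of 35, where it called 2.18% and 0.758% of all genes. At an unadjusted p under 0.05 these were 5 and 5 of 35, beside 17.9% and 16.2% of all genes. Over 20 alternative fits the 5 named genes kept their sign, but none passed in every fit. Their log2 differences ran from 0.345 to 0.693 for Pfkp and from 0.871 to 1.727 for Aldoc. Those of the lower ones ran from -1.647 to -1.003 for Pfkm, -2.371 to -1.649 for P4ha2 and -0.871 to -0.426 for Bnip3. With 1 IM library left out at a time, the number of these genes that passed changed, as did the share of all genes. The median log2 fold change of the 35 then ran from -0.243 to 0.0431, beside -0.0481 with all 12 libraries. At an unadjusted p under 0.05, 6 were higher and 9 lower, beside 28.1% of all genes in either direction. The libraries did not overlap at 4 genes that were higher and 3 that were lower, beside 7.93% and 12.1% of all genes. Ankrd37, Ndrg1, Egln3 and Slc2a1 had differences between the IM populations of -0.22 (SE 0.31), -0.01 (SE 0.30), 0.38 (SE 0.51) and 0.37 (SE 0.22) on the log2 scale. None of the 4 passed, and a difference of either sign remains possible for each.

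Levels between genes can be compared only per length, on the deposited FPKM scale (fragments per kilobase of gene, scaled to library size). In AMs the order by median ran Aldoa (1114 to 1161 FPKM), Ldha (616 to 663), Pkm (535 to 657) and Tpi1 (177 to 209), of which Ldha and Pkm overlap in range. In CD11c+ IMs it ran Aldoa (630 to 994), Pkm (685 to 937), Ldha (574 to 874) and Tpi1 (254 to 442), and in CD11c- IMs Pkm (680.0 to 1018), Aldoa (597 to 1077), Ldha (632 to 1082) and Tpi1 (363 to 802), with the first 3 overlapping in both. At the low end of AMs stood Egln3, with a median of 0.25 FPKM, Adm (0.37), P4ha2 (0.50), Pfkm (0.56) and Slc2a3 (1.19). Their medians in CD11c+ IMs were 3.47, 4.32, 2.77, 1.16 and 9.24 FPKM, and in CD11c- IMs 2.61, 6.86, 10.4, 3.41 and 28.4 FPKM. The genes with the largest fold changes were thus among the least abundant of the list in AMs.

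The isozymes of several steps took different shares in the populations. Pfkl made up 31% to 38.6% of the summed FPKM of the 3 phosphofructokinase genes in CD11c+ IMs and 48% to 56.8% in CD11c- IMs, against 17.1% to 21.9% in AMs. Most of the rest was Pfkp, which held 77.9% to 82.5% in AMs. Slc2a3 made up 3.44% to 27.8% of the 2 glucose transporters in CD11c+ IMs and 7.81% to 46.8% in CD11c- IMs, against 3.47% to 8.69% in AMs, with overlap between the populations. Pfkfb3 made up 14.9% to 32.7% of the Pfkfb3 and Pfkfb4 sum in CD11c+ IMs and 8.58% to 22.5% in CD11c- IMs, against 3.24% to 4.95% in AMs. Bnip3 made up 31.2% to 45% of the Bnip3 and Bnip3l sum in CD11c+ IMs and 49.5% to 70.4% in CD11c- IMs, against 14.2% to 16% in AMs. Hk3 was the larger part of the hexokinases in all 3, with 62% to 72% in CD11c+ IMs, 49.7% to 61.4% in CD11c- IMs and 58.8% to 72.6% in AMs. Hif1a was 91.8% to 97.8% of the Hif1a and Epas1 sum in CD11c+ IMs, 76.5% to 96.5% in CD11c- IMs and 91.6% to 94.9% in AMs. These shares are given without a test.

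**Figure D4:**
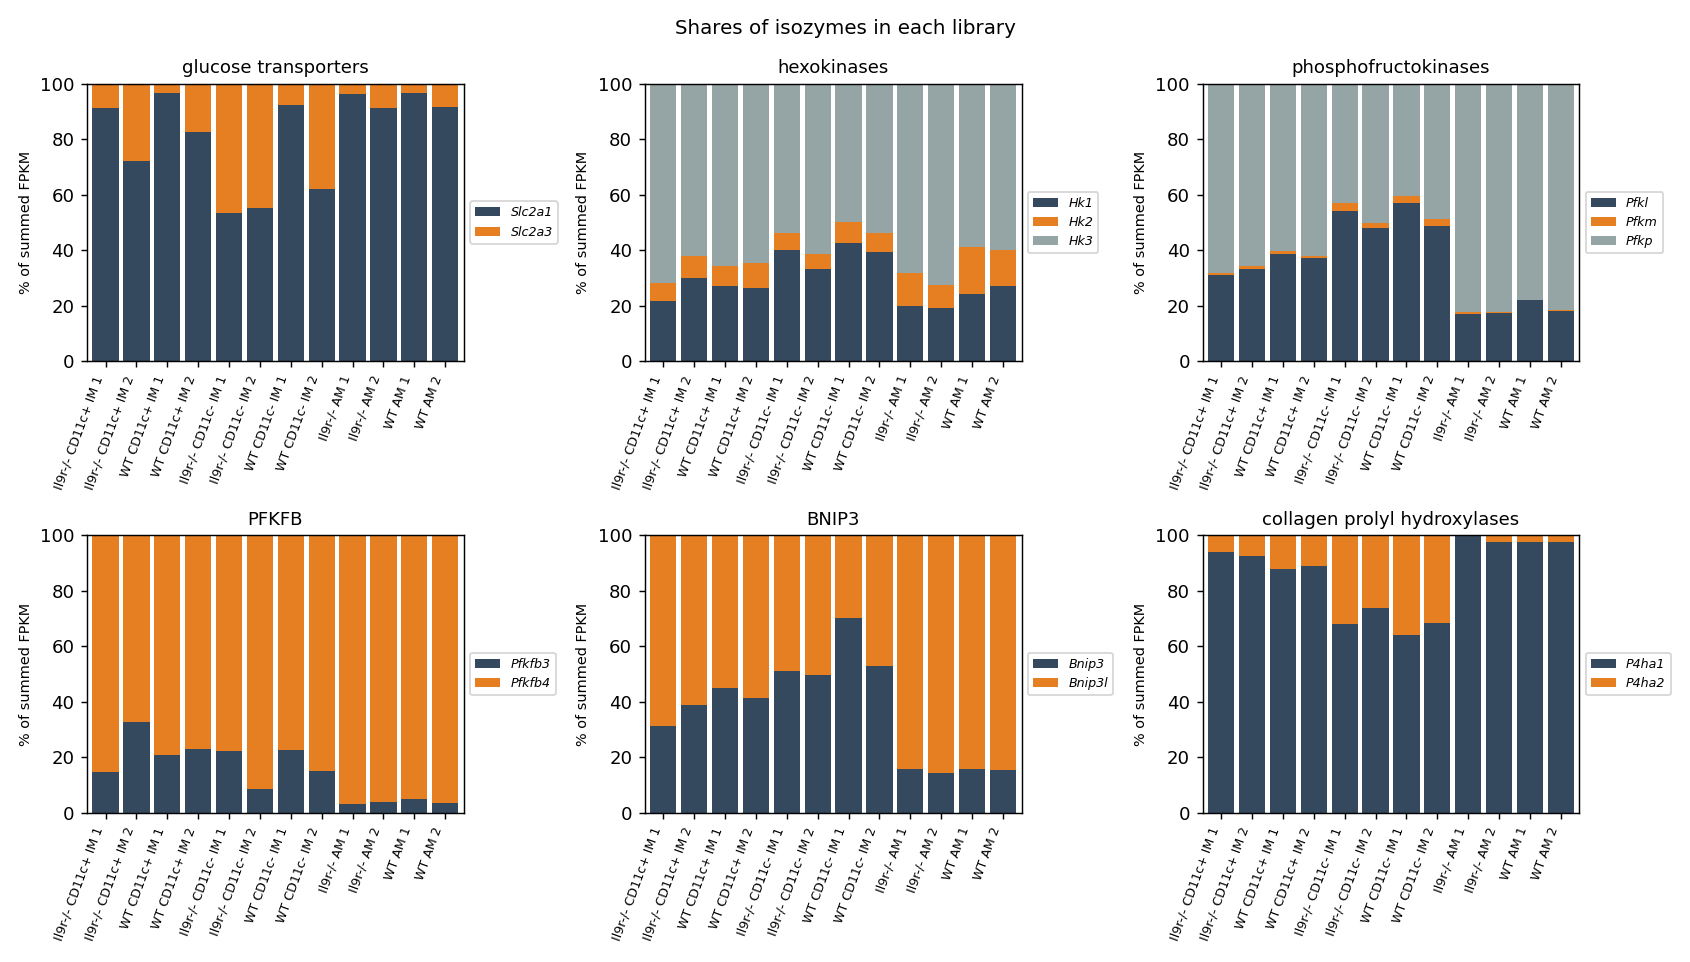
Share of each isozyme in the summed FPKM of its family (%), one bar per library, with libraries of CD11c+ IMs, CD11c- IMs and AMs from left to right. Pfkl, Pfkfb3 and Bnip3 take a larger share in every IM library than in any AM library.

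The genes also varied within groups. The 2 libraries of a group differed by a median over the 35 genes of 0.33 log2 units in Il9r-/- and 0.24 in WT CD11c+ IMs, 0.42 in Il9r-/- and 0.57 in WT CD11c- IMs, and 0.17 in Il9r-/- and 0.12 in WT AMs. The largest such gap was 4.30, for P4ha2 in AMs labelled Il9r-/-, where one library held 2 counts. In IMs, 5 genes were higher in the library numbered 2 in all 4 groups, namely Slc2a1, Slc2a3, Slc16a3, Egln3 and Ndrg1. Another 10 were higher in the library numbered 1 in all 4, namely Pfkp, Aldoa, Aldoc, Tpi1, Pgk1, Pgam1, Ldha, Hif1a, P4ha2 and Mif. Marker sums moved with the number as well, in all 4 IM groups. In the order Il9r-/- libraries 1 and 2, then WT libraries 1 and 2, the neutrophil sum was 569, 2294, 326 and 1368 CPM in CD11c+ IMs and 3116, 6837, 417 and 3351 CPM in CD11c- IMs, and the B cell sum 100.3, 370.2, 154 and 484 CPM and 182, 893, 204 and 1507 CPM. The dendritic cell sum was likewise higher in each library numbered 2. The interstitial macrophage sum ran the other way, at 14830, 11540, 18800 and 13460 CPM in CD11c+ IMs and 23880, 10800, 24420 and 8580 CPM in CD11c- IMs, as did the sum of the sorting markers. Their part in the differences between libraries was not tested.

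Between libraries labelled Il9r-/- and WT, none of the 35 passed in CD11c+ IMs, CD11c- IMs or AMs, where 0.00683%, 0% and 0.0205% of all genes passed, and none over the 3 populations together, where 0.0273% passed. At an unadjusted p under 0.05, edgeR's quasi-likelihood test gave 1 higher and 1 lower in CD11c+ IMs, 1 higher and 4 lower in CD11c- IMs and 2 lower in AMs, where 3.88%, 1.7% and 4.08% of all genes did so in either direction. Over the 3 populations together, 1 was higher and 6 lower, beside 5.63% of all genes. With an absolute log2 change above 1 as well, 1 was left in each: Epas1 among the higher in CD11c+ IMs (1.65% of all genes), CD11c- IMs (0.792%) and over the 3 populations (1.8%), and Ndrg1 among the lower in AMs (2.03%). DESeq2 called Ero1l alone, in CD11c- IMs (log2 fold change -0.85, adjusted p = 0.0451) and over the 3 populations (-0.58, adjusted p = 0.000255), where edgeR gave an adjusted p = 1 and an adjusted p = 0.189. By DESeq2, 0.0614% and 1.2% of all genes passed in these 2 comparisons. The fold changes leaned one way without passing: 28 of 35 were below 0 in CD11c+ IMs, 29 in CD11c- IMs and 24 in AMs, with medians of -0.29, -0.32 and -0.11, beside 0.0074, 0.0030 and 0 for all genes. Without the 3 WT libraries numbered 1, the only ones with Xist, 28, 19 and 21 were below 0, with medians of -0.22, -0.013 and -0.070. The direction is that of the labels, which the Il9r counts of CD11c+ IMs and AMs go against, while Arg1 was lower on average in libraries labelled Il9r-/- in each population.

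Ero1l had the lowest p of the 35 in 3 of the 4 genotype comparisons. Its log2 fold changes between libraries labelled Il9r-/- and WT were -0.70 (SE 0.18, adjusted p = 0.709) in CD11c+ IMs, -0.87 (SE 0.18, adjusted p = 1) in CD11c- IMs and -0.19 (SE 0.18, adjusted p = 1) in AMs. The Il9r-/- values were below the WT values in each population, 73.8 and 76.5 CPM against 127 and 116 in CD11c+ IMs, 80.5 and 89.8 against 182 and 128 in CD11c- IMs, and 92.4 and 82.3 against 102 and 97.0 in AMs. Of all genes, 12.5%, 7.63% and 22.4% were likewise lower without overlap in CD11c+ IMs, CD11c- IMs and AMs. Over 13 alternative fits, the log2 fold change of Ero1l in CD11c- IMs ran from -1.095 to -0.518. The largest fold change was that of Epas1, 1.67 (SE 0.69, adjusted p = 1) in CD11c+ IMs and 1.60 (SE 0.68, adjusted p = 1) in CD11c- IMs. In CD11c- IMs it rested on 1 library: without Il9r-/- CD11c- IM library 1 it was -0.0399, with the sign turned. In CD11c+ IMs the endothelial marker sum was 182 and 201 CPM in libraries labelled Il9r-/-, against 76.9 and 87.6 CPM in WT ones. The part of endothelial RNA in the Epas1 difference was not tested. P4ha2 and Egln3 in CD11c+ IMs had -1.13 (SE 0.73, adjusted p = 1) and -0.70 (SE 0.72, adjusted p = 1). That of Egln3 ran from -2.03 without Il9r-/- CD11c+ IM library 2 to -0.032 without Il9r-/- CD11c+ IM library 1. Adm in CD11c- IMs had -1.04 (SE 0.66, adjusted p = 1), and -1.80 without Il9r-/- library 2 and -0.54 without Il9r-/- library 1 of that population. In AMs, Egln3, P4ha2 and Adm had -1.40 (SE 0.81, adjusted p = 1), -1.24 (SE 0.83, adjusted p = 1) and -1.19 (SE 0.76, adjusted p = 1), all from counts of 2 to 46 per library. Without Il9r-/- AM library 2 these were -2.57, -4.47 and -2.44, and without Il9r-/- AM library 1 they were -0.71, -0.27 and -0.48. Over the 3 populations together the largest were those of Epas1, P4ha2 and Adm, at 1.14 (SE 0.39, adjusted p = 0.657), -0.95 (SE 0.44, adjusted p = 0.9) and -0.88 (SE 0.40, adjusted p = 0.892). Leaving out 1 library gave 0.59 to 1.39 for Epas1, -2.03 to -0.63 for P4ha2 and -1.30 to -0.65 for Adm, with Epas1 lowest without Il9r-/- CD11c- IM library 1 and the other 2 furthest from 0 without Il9r-/- AM library 2 and nearest to it without Il9r-/- AM library 1. Whether the genotype difference varied between the populations was tested for all 35 in 3 interaction contrasts, and 0 passed in each, where 0% of all genes did.

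**Figure D5:**
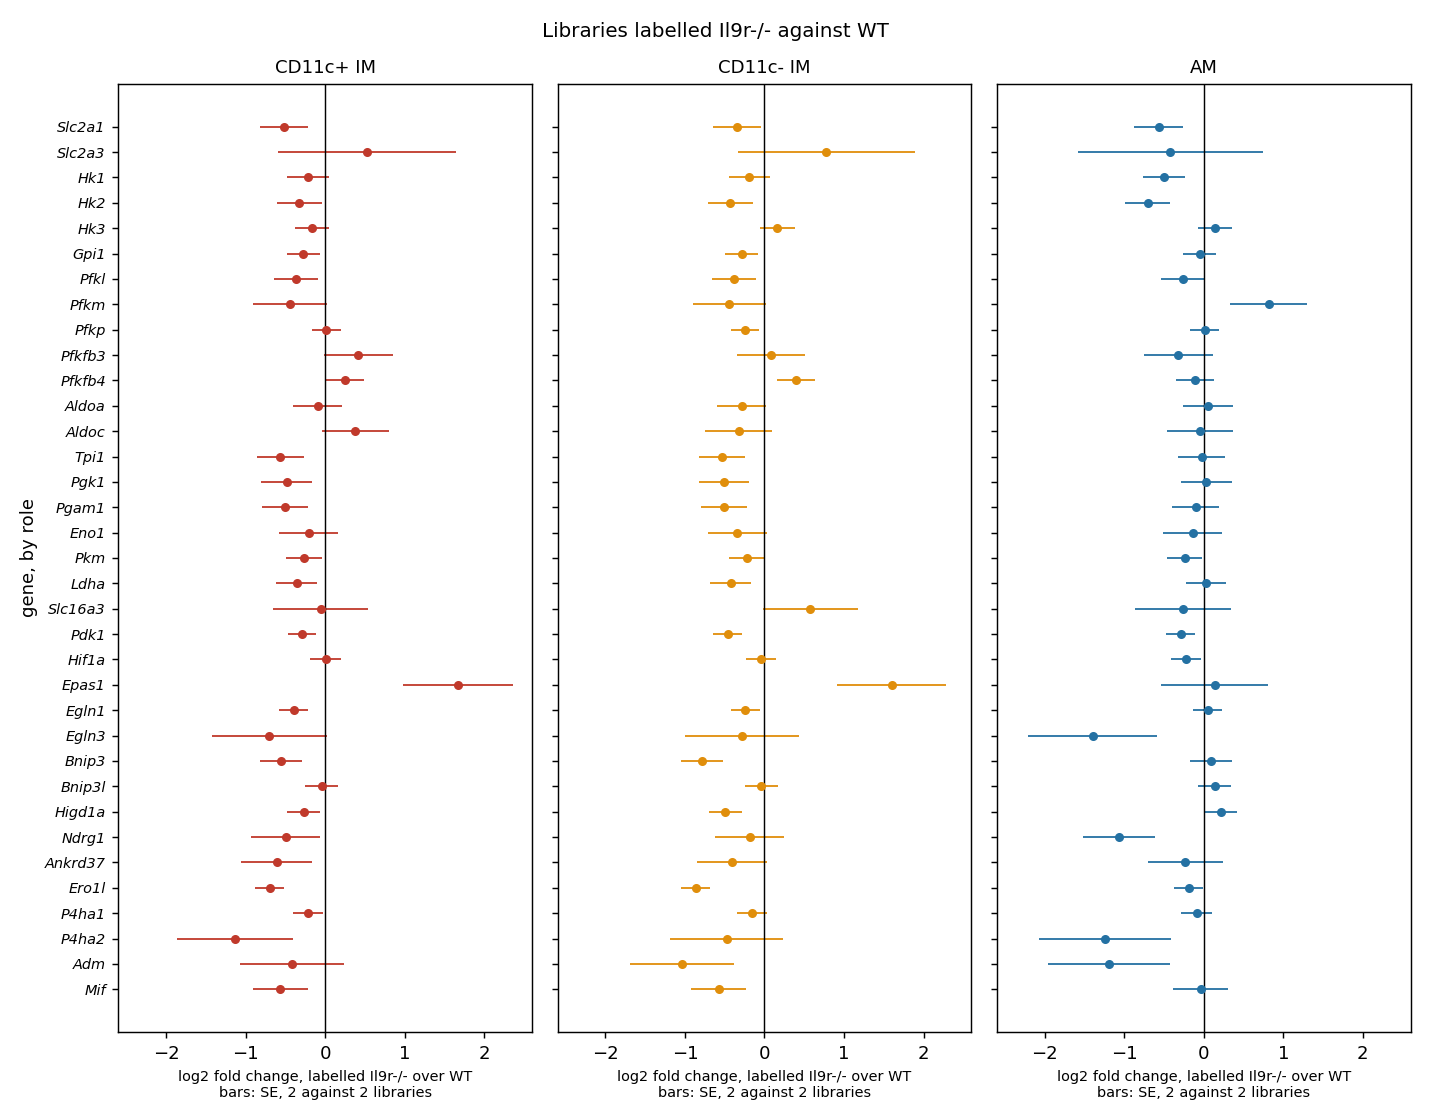
Log2 fold change of each gene in libraries labelled Il9r-/- over WT in CD11c+ IMs, CD11c- IMs and AMs, with SE as bars and 2 against 2 libraries in each. Most points lie below 0 (28, 29 and 24 of 35), Epas1 stands highest in both IM populations, and no gene passed an adjusted p of 0.05.

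Further genes of these pathways were counted by the same test, beside the shares of all genes given above: 15.9% higher and 10.7% lower in CD11c+ IMs, and 27.9% higher and 17.8% lower in CD11c- IMs, against AMs. Against AMs, 5 of 19 further glycolytic genes were higher and 2 lower in CD11c+ IMs, and 10 were higher and 2 lower in CD11c- IMs. The enolase gene Eno2 had log2 fold changes over AMs of 4.21 in CD11c+ IMs (SE 0.79, adjusted p = 0.00449) and 3.60 in CD11c- IMs (SE 0.77, adjusted p = 0.00484). Those of Eno3, the muscle enolase, were 4.00 in CD11c+ IMs (SE 0.55, adjusted p = 0.000958) and 2.86 in CD11c- IMs (SE 0.53, adjusted p = 0.00226). The lactate dehydrogenase subunit Ldhb had 2.10 in CD11c+ IMs (SE 0.37, adjusted p = 0.00306) and 4.88 in CD11c- IMs (SE 0.41, adjusted p = 3.93e-05). Eno2 and Ldhb are also known from neurons, heart and many tumors. Tigar, which lowers fructose 2,6-bisphosphate, was lower in both, at -1.17 in CD11c+ IMs (SE 0.22, adjusted p = 0.00474) and -1.09 in CD11c- IMs (SE 0.22, adjusted p = 0.0036).

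Against AMs, 5 of 25 further genes of the HIF pathway were higher and 4 lower in CD11c+ IMs, and 12 were higher and 7 lower in CD11c- IMs. In CD11c+ IMs these counts were close to the shares of all genes, and nothing is read from them for the pathway. Vegfa, the angiogenic factor, had log2 fold changes of 4.25 in CD11c+ IMs (SE 0.30, adjusted p = 4.44e-05) and 3.66 in CD11c- IMs (SE 0.30, adjusted p = 3.49e-05), Ddit4, an inhibitor of mTORC1, of 3.33 in CD11c+ IMs (SE 0.67, adjusted p = 0.00625) and 3.80 in CD11c- IMs (SE 0.68, adjusted p = 0.00193), and Ak4, an adenylate kinase of mitochondria, of 2.75 in CD11c+ IMs (SE 0.58, adjusted p = 0.00769) and 4.11 in CD11c- IMs (SE 0.60, adjusted p = 0.000655). Angptl4, a known HIF target that inhibits lipoprotein lipase and answers to PPARs as well, ran the other way, with -2.54 in CD11c+ IMs (SE 0.31, adjusted p = 0.000467) and -4.10 in CD11c- IMs (SE 0.33, adjusted p = 3.38e-05). Of 11 genes that carry pyruvate into mitochondria or gate its entry, 0 were higher and 4 lower in CD11c+ IMs and 0 higher and 7 lower in CD11c- IMs. Pdk4, a kinase that shuts pyruvate dehydrogenase, had -2.25 in CD11c+ IMs (SE 0.52, adjusted p = 0.0118) and -3.67 in CD11c- IMs (SE 0.55, adjusted p = 0.00075), and Mpc2, a subunit of the pyruvate carrier, -0.99 in CD11c+ IMs (SE 0.12, adjusted p = 0.000508) and -1.22 in CD11c- IMs (SE 0.12, adjusted p = 8.7e-05). Of 7 pentose phosphate genes, 0 were higher and 3 lower in CD11c+ IMs and 0 higher and 6 lower in CD11c- IMs, Rpia with -2.12 in CD11c+ IMs (SE 0.48, adjusted p = 0.0111) and -1.96 in CD11c- IMs (SE 0.48, adjusted p = 0.00867) among them. Of 17 citrate cycle genes, 0 were higher and 3 lower in CD11c+ IMs, and 2 higher and 4 lower in CD11c- IMs.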

How the data were processed

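Bulk RNA-Seq of sorted mouse lung macrophages was analysed in 12 libraries, 2 for each of 6 groups. The authors deposited raw counts per gene, made with STAR 2.5 on mm10 (GRCm38) and featureCounts of Subread 1.5.1 on uniquely mapped reads, and log2 FPKM values. The authors also removed genes with low CPM before deposit. Reads were counted with a strand setting, while the library kit (SMART-Seq v4) does not mark strand, so genes that overlap may share or lose reads. All sample columns matched a label (0 did not). The 24 columns of the authors' comparisons hold fold changes and p-values and were not used.

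Counts were scaled by TMM and tested with edgeR 4.0.16 in R 4.3.3 (robust quasi-likelihood test, 6 groups, Benjamini-Hochberg adjustment over all 14648 genes). Population comparisons average the genotypes. The code was checked on simulated counts for CD11c+ IMs against AMs. The simulated libraries spread less than the real ones, so this does not show what the tests recover in these data. DESeq2 1.42.0, other scalings and filters, a replicate block, subsets of libraries and leaving out each library were the alternatives. Promoter windows came from RefSeq (GRCm38.p6). The members, lists and tests were chosen with earlier results of these data known. Genes were named where they passed in a comparison between populations, together with Slc2a1, Hk2, Hk3, Pfkfb3, Pkm, Ldha, Hif1a and Epas1, and, by genotype, the 3 with the largest change; the others were named after their values were seen.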

Additional observations from a re-analysis of the deposited data

How the results depend on the processing

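Of the 35 genes, 24, 25 and 5 passed in CD11c+ IMs against AMs, CD11c- IMs against AMs and CD11c+ IMs against CD11c- IMs. DESeq2 size factors and no filter on low counts left these counts as they were. With total counts they were 26, 30 and 10, with DESeq2 26, 27 and 10, with only the groups compared 26, 25 and 2, and without the WT libraries numbered 1 13, 22 and 0. Among WT libraries they were 14, 21 and 0, and among libraries labelled Il9r-/- 12, 21 and 0. Leaving out 1 library at a time, the median log2 fold changes of the 35 ran from 0.691 to 0.899, 0.738 to 0.927 and -0.243 to 0.0431. How many of the 35 passed, and the share of all genes, changed with the library left out. Without the 2 CD11c- IM libraries numbered 1, an alternative chosen after seeing the data, the median was 0.715 for CD11c- IMs against AMs. It was -0.0702 for CD11c+ IMs against CD11c- IMs. Correlations between same-numbered libraries were positive in all 15 pairs of groups but ran from 0.000921 to 0.41, above 0.1 in 8. Within WT the correlations were 0.176, 0.179 and 0.387, and within Il9r-/- 0.0812, 0.0866 and 0.174. In WT the number also went with sex in all 3 populations. The labels do not say what a number marks, so the number was not made part of the main design, which leaves out any pairing. A replicate block by number gave 25, 26 and 11 genes that passed, and one by genotype and number 25, 26 and 10. By genotype, 0 passed by edgeR in each comparison. DESeq2 called 1 in CD11c- IMs and 1 over the 3 populations, Ero1l in both, beside 0.0614% and 1.2% of all genes. In each of AMs, CD11c+ IMs, CD11c- IMs and the 3 together, 1 had an unadjusted p under 0.05 with an absolute log2 change above 1. The shares of all genes by that rule were 2.77%, 3.28%, 1.02% and 3.43%. The log2 difference of Epas1 in CD11c- IMs was -0.0399 without Il9r-/- CD11c- IM library 1, -0.54 without both CD11c- IM libraries numbered 1 and 2.38 without WT CD11c- IM library 2. For the 3 populations together, using only the groups compared is the fit reported. The cause of these shifts was not tested. Fewer than 50 counts of Egln3, Adm and P4ha2 per AM library limit their fold changes.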
